A study of Mus musculus with 12 samples.

Results

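The aryl hydrocarbon receptor (AhR) genes examined here were Ahr, Arnt, Ahrr, Cyp1a1, Cyp1b1 and Tiparp, chosen by name as the receptor, its partner, its repressor and the genes by which its activity is usually read. All 6 were found among the 57180 genes of the count files, and 5 of the 6 were abundant enough to be tested. Their transcripts were measured by RNA-Seq of polyadenylated RNA in 12 kidney libraries, 1 per mouse and 4 per group. The mice were C57BL/6J males and young adults when treatment began. The 10CBD and 20CBD groups received cannabidiol (CBD), a non-intoxicating compound of Cannabis sativa, at 10 or 20 mg/kg b.w. by intraperitoneal injection once a day for 28 days, and the Control group received the vehicle in the same way. No genetic alteration was made in any group. The animals were of 1 sex and 1 strain, and each library came from a piece of kidney that holds tubules, vessels, glomeruli and connective tissue together. The comparisons ask whether daily CBD altered the level of these transcripts and whether the doses differed.

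AhR is a ligand-activated transcription factor that waits in the cytoplasm bound to the chaperone HSP90. Ligands such as dioxins, polycyclic hydrocarbons and tryptophan metabolites send it to the nucleus, where it pairs with ARNT and binds DNA at xenobiotic response elements with the core GCGTG. Its classical targets are the CYP1 enzymes, which oxidize the ligands, and Ahrr and Tiparp, whose products restrain the receptor. In the kidney, Cyp1a1 is usually low without a ligand, whereas Cyp1b1 is expressed without one, mostly in vascular and mesenchymal cells.

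The promoter sequences of 5 members were in the RefSeq promoter table of build GRCm38.p6, which gives 250 bases before and 50 bases after each transcription start. Ahr had no entry. Each window was located in GRCm39, the build of the count files, by its own sequence. The sequences below are written on the strand of the gene, 5′ to 3′, and the capitals mark the core GCGTG or its complement CACGC. They are shown because the core is the element through which the receptor acts and because the 3 genes differ in how they carry it.

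Cyp1a1, chr9:57604829-57604858, plus strand: ctcagataaggagGCGTGgccaacagacac
Cyp1b1, chr17:80022533-80022652, minus strand: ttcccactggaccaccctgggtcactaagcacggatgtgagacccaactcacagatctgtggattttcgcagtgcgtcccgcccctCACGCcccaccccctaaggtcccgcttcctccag
Ahrr, chr13:74440463-74440582, minus strand: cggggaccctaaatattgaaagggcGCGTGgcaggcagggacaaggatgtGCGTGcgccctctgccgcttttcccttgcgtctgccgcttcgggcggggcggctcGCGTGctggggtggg

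The Cyp1a1 window held 1 core, 54 bases before the RefSeq start, and the Cyp1b1 window held 1 on the other strand, 76 bases before its start. Ahrr held 3 cores, at 107, 82 and 27 bases before the start. The cores of Arnt and Tiparp lay 29 and 170 bases before the start. Searched on both strands, the core was present in 5 of 5 member windows and in 32.4% of all 32851 windows, or in 47.3% of the 14715 windows of tested genes. The longer form TNGCGTG, which contains the core, was present in the Ahrr window alone among the 5, where it overlapped the core at 27 bases, and in 5.07% of all windows. A match describes letters and does not show binding. The well-known enhancer of Cyp1a1 lies further upstream than these windows reach.

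Per annotated exon length, the members fell into 3 tiers. Levels are given as RPKM, reads scaled by annotated exon length and library size, averaged over the 12 libraries, since CPM takes no account of length. The length joins all annotated exons of a gene, from 3903 bases for Cyp1a1 to 11408 for Tiparp. It can exceed the length of the transcripts present, so the levels depend on the annotation. The mean was 5.63 RPKM for Cyp1b1 and 4.45 for Arnt, and their ranges over the libraries, 3.39 to 8.56 and 3.89 to 4.84, overlapped. Tiparp at 1.19 RPKM and Ahr at 0.739 followed, again with overlapping ranges of 0.588 to 2.01 and 0.372 to 1.15. Cyp1a1 averaged 0.134 RPKM and Ahrr 0.0201. The highest Cyp1a1 library, at 0.335 RPKM, was below the lowest Ahr library, whereas the Cyp1a1 and Ahrr ranges overlapped. Between libraries, Arnt was the steadiest member, with a coefficient of variation of 5.88%, against 26.6% for Cyp1b1, 32.5% for Ahr, 33.2% for Tiparp, 76.7% for Cyp1a1 and 85.0% for Ahrr.

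**Figure D1:**
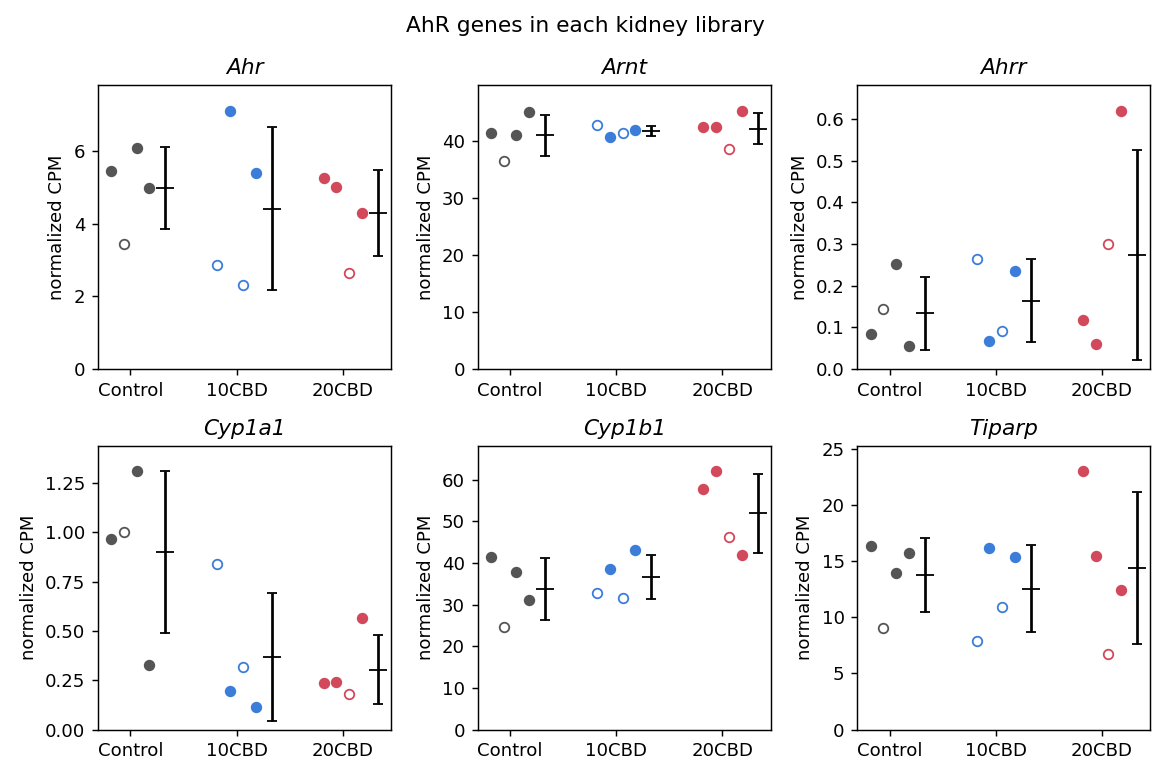
Normalized CPM (reads scaled to library size, y axis from 0) of the 6 genes in each library, by group (x axis). Points are libraries, open points the 4 libraries with under 10% of counts on mitochondrial genes, and bars the mean ± SD of 4 libraries. The 4 Cyp1b1 points of 20CBD, between 41.9 and 62.0 CPM, sit above all Control points, and 3 of 4 Cyp1a1 points in each CBD group sit below all Control points.

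None of the 5 tested genes was called in any comparison by edgeR's quasi-likelihood test at a Benjamini-Hochberg adjusted p under 0.1 over the 17163 genes tested. The same test called 5 genes (0.0291%) for 10CBD against Control, 52 genes (0.303%) for 20CBD against Control and 0 genes (0.0%) for 20CBD against 10CBD. At an unadjusted p under 0.05, 1 member passed for 10CBD against Control (Cyp1a1, lower) where 5.67% of all genes did. For 20CBD against Control, 2 members passed (Cyp1a1 lower, Cyp1b1 higher), beside 8.45% of all genes. For 20CBD against 10CBD, 1 member passed (Cyp1b1, higher), beside 6.31% of all genes, which are 1083 genes. DESeq2 called 12 genes in the last comparison and 0 members. Groups that did not overlap in normalized CPM were found for 1 member, Cyp1b1 in 20CBD against Control, a pattern that 5.30% of all tested genes had in 1 direction or the other. The corresponding shares of all genes were 3.18% for 10CBD against Control and 3.11% for 20CBD against 10CBD, with no member among them.

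**Figure D2:**
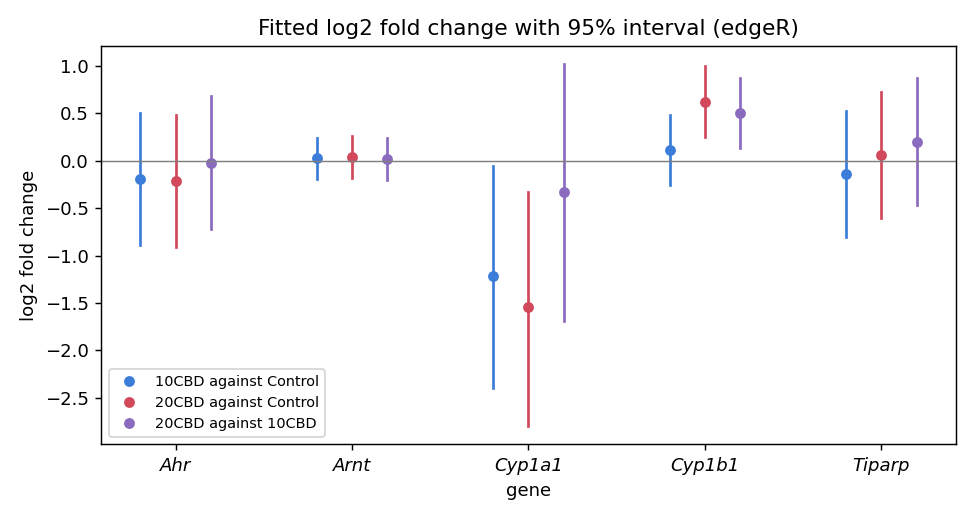
Fitted log2 fold change (y axis) of the 5 tested genes (x axis) in the 3 comparisons, with 95% intervals as vertical lines, from edgeR. The intervals of Cyp1a1 against Control lie below 0 at both doses, and those of Cyp1b1 lie above 0 for 20CBD against either other group, before adjustment over all genes.

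Cyp1b1 (ENSMUSG00000024087, GRCm39 chr17:80008966-80022532, minus strand), a cytochrome P450 that oxidizes polycyclic hydrocarbons, estradiol and arachidonic acid, had the highest mean level per annotated exon length of the 6 and the smallest unadjusted p of the members. The Control libraries held 41.4, 24.5, 37.8 and 31.1 normalized CPM. The 10CBD libraries held 32.9, 38.6, 31.7 and 43.1. The 20CBD libraries held 57.7, 62.0, 46.2 and 41.9, so that each of the 4 was above each Control library, the narrowest gap lying between 41.9 and 41.4. The 10CBD values overlapped both other groups.

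The means of Cyp1b1 were 33.7 ± 7.45 CPM in Control, 36.6 ± 5.31 in 10CBD and 51.9 ± 9.43 in 20CBD (SD, n = 4 each), and the ratio of the 20CBD to the Control mean was 1.54. The fitted log2 fold change of 20CBD against Control was 0.62 ± 0.17 (SE), with a 95% interval of 0.25 to 1.00. Its unadjusted p was 0.00271, rank 151 of the genes tested, and its adjusted p 0.308 (edgeR), so the gene did not pass the threshold. An exact two-sided permutation test of log2 CPM gave p = 0.0286, the smallest that 4 against 4 libraries allow, and 0.214 after Benjamini-Hochberg adjustment over the 15 tests of members. Against 10CBD the log2 fold change was 0.51 ± 0.17 (interval 0.14 to 0.88, adjusted p = 0.758), and 3 of 4 20CBD libraries were above all 10CBD libraries. For 10CBD against Control it was 0.12 ± 0.17 (interval -0.25 to 0.49, adjusted p = 0.945).

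The Cyp1b1 call depended on the test. In 20CBD against Control, DESeq2 gave log2 0.62 and an adjusted p of 0.0939, testing without a filter on low counts gave 0.61 and 0.0185, and a fit that took mitochondrial share into account gave 0.51 and 0.0305. These alternatives also called more genes of all kinds, 1.06%, 1.04% and 8.08% of those tested. Across all 22 alternatives the estimate stayed between 0.50 and 0.74, and the adjusted p ranged from 0.0185 to 0.612.

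Markers of 2 cell type lists differed between Control and 20CBD beside Cyp1b1. The 8 markers of mesangial cells, pericytes, smooth muscle and fibroblasts summed to 274 to 309 CPM in Control, 277 to 372 in 10CBD and 348 to 399 in 20CBD. Such a sum weighs abundant markers most. Mean Myh11 was 74.5 CPM in Control and 122 in 20CBD, whereas mean Col1a1 was 9.91 and 9.90. At 20 mg, 7 of the 8 had a positive log2 fold change and 1 was called, Myh11, the smooth muscle myosin heavy chain (log2 0.71 ± 0.14, adjusted p = 0.0760). The 6 proximal tubule markers summed to 6978 to 8750 CPM in Control, 5753 to 6864 in 10CBD and 5663 to 6180 in 20CBD. Both CBD groups lay below Control in this sum, while Cyp1b1 in 10CBD overlapped Control. The tubule markers also moved unevenly, with mean Lrp2 at 2223 CPM in Control and 1317 in 20CBD, and mean Slc22a6 at 651 and 636. At 20 mg 0 of the 6 were positive and 1 was called, Slc5a2, the tubular glucose cotransporter (log2 -0.61 ± 0.12, adjusted p = 0.0820). Leaving out any 1 of the 8 Control and 20CBD libraries ended the Slc5a2 call (adjusted p = 0.108 to 0.273, edgeR). Leaving out any Control library, 10CBD replicate 3 or 4, or 20CBD replicate 2, 3 or 4 ended that of Myh11 (adjusted p = 0.107 to 0.263, edgeR), and under the replicate block the values were 0.138 and 0.206 for Myh11 and Slc5a2. In 10CBD replicate 1, the library of lowest mitochondrial share (3.53%), the stromal sum was 372 and the tubule sum 5753 CPM. Both were inside the 20CBD ranges, and Cyp1b1 was at 32.9 CPM. As 1 library with the lowest share, it cannot separate the markers from the share. Cyp1b1 was also associated with the mitochondrial share, as given below. No marker of either list was at 0 throughout a group. The part of these markers in the Cyp1b1 difference was not tested, and in bulk RNA more cells of a type and more RNA per cell cannot be told apart. The sums of the 7 endothelial markers overlapped between Control and 20CBD at 484 to 534 and 469 to 596 CPM. At 20 mg 5 of the 7 had a positive log2 fold change and 0 were called. Kdr alone had an unadjusted p under 0.05, and it was lower (log2 -0.33, unadjusted p = 0.00982, adjusted p = 0.419, edgeR).

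**Figure D3:**
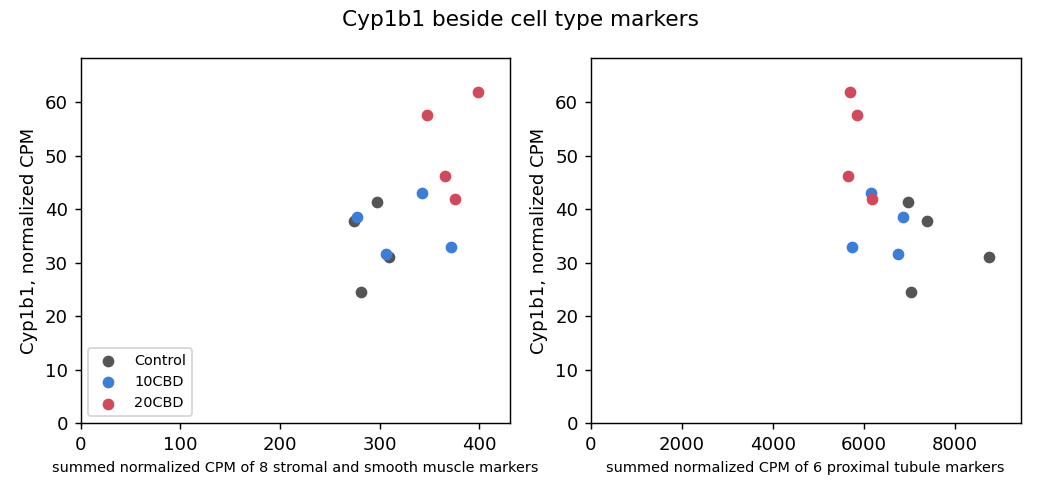
Cyp1b1 in normalized CPM (y axis) against the summed normalized CPM of 8 mesangial, pericyte, smooth muscle and fibroblast markers (left) or 6 proximal tubule markers (right), 1 point per library. The 20CBD libraries have stromal sums of 348 to 399, tubule sums of 5663 to 6180 and Cyp1b1 between 41.9 and 62.0 CPM. 10CBD replicate 1, the library of lowest mitochondrial share (3.53%), lies inside both ranges of sums with Cyp1b1 at 32.9 CPM. As 1 library with the lowest share, it cannot separate the markers from the share. The part of the markers was not tested.

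Cyp1a1 (ENSMUSG00000032315, chr9:57595211-57611107, plus strand), the P450 most often used as a readout of AhR activity, was near the limit of detection. Its raw counts were 23, 21, 26 and 6 in the Control libraries, 19, 3, 7 and 2 in 10CBD, and 4, 4, 3 and 10 in 20CBD. In normalized CPM these were 0.964, 1.00, 1.31 and 0.326 in Control, 0.838, 0.198, 0.316 and 0.117 in 10CBD, and 0.234, 0.239, 0.180 and 0.564 in 20CBD. In each CBD group 3 of 4 libraries were below all Control libraries, and the groups overlapped because Control replicate 4 was low, 10CBD replicate 1 was high and 20CBD replicate 4 was the highest of its group.

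The mean of Cyp1a1 was 0.899 ± 0.412 CPM in Control, 0.367 ± 0.324 in 10CBD and 0.304 ± 0.175 in 20CBD (SD, n = 4 each). The fitted log2 fold change was -1.22 ± 0.55 at 10 mg (interval -2.40 to -0.06, unadjusted p = 0.0408, adjusted p = 0.850, edgeR) and -1.54 ± 0.58 at 20 mg (interval -2.80 to -0.33, unadjusted p = 0.0166, adjusted p = 0.474, edgeR). An exact two-sided permutation test gave p = 0.0571 at each dose, 0.214 after adjustment over the 15 tests. The doses differed from each other by log2 -0.33, with an interval of -1.69 to 1.02 that leaves the order of the doses undetermined at this depth. The gene passed the low-count filter through 5 libraries at or over 0.550 CPM, 3 of them Control, so its passing favored a group that was high. Leaving out 10CBD replicate 1, which held 19 of the 31 counts of its group, moved the 10 mg estimate to -2.03, and leaving out 20CBD replicate 4 moved the 20 mg estimate to -2.02. Neither passed the adjusted threshold. Over all fits that left out 1 library, the estimate ranged from -2.03 to -0.95 at 10 mg and from -2.02 to -1.32 at 20 mg. The highest unadjusted p in these fits was 0.117 at 10 mg and 0.0528 at 20 mg (edgeR).

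Adipocyte markers, which enter kidney samples with perirenal fat, were also examined beside Cyp1a1. The 5 markers summed to 95.8 to 258 CPM in Control, 67.7 to 135 in 10CBD and 67.8 to 114 in 20CBD, and 4 were tested. All 4 had negative log2 fold changes at each dose, 0 were called, and 4 had an unadjusted p under 0.05 at 20 mg. The group sums overlapped through Control replicate 3. Control replicates 1 to 4 had sums of 209, 258, 95.8 and 229 CPM. Cyp1a1 in the same libraries was 0.964, 1.00, 1.31 and 0.326 CPM, from 23, 21, 26 and 6 counts. In 10CBD the sums were 135, 125, 67.7 and 89.5 CPM, and Cyp1a1 was 0.838, 0.198, 0.316 and 0.117 CPM. In 20CBD the sums were 67.8, 114, 91.9 and 104 CPM, and Cyp1a1 was 0.234, 0.239, 0.180 and 0.564 CPM. No adipocyte marker was at 0 throughout a group, and their part in the Cyp1a1 values was not tested. Adrenal cortex markers, from a gland that lies on the kidney, summed to 3.61 to 5.53 CPM over all 12 libraries. Most of this was Star, with means of 4.81 CPM in Control, 4.10 in 10CBD and 4.27 in 20CBD. Cyp21a1 was at 0 in every library of both CBD groups, and Cyp11b2 in every library of Control and 10CBD. Cyp11b1 was at 0 in every library of 10CBD. Elsewhere these 3 were sparse. Cyp21a1 held 6 counts in all in Control, Cyp11b1 7 in Control and 2 in 20CBD, and Cyp11b2 2 in 20CBD.

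Ahrr (ENSMUSG00000021575, chr13:74359237-74440462, minus strand), which encodes a repressor that competes with AhR for ARNT, was too low to judge. Its counts were 2, 3, 5 and 1 in the Control libraries, 6, 1, 2 and 4 in 10CBD, and 2, 1, 5 and 11 in 20CBD, or 11, 13 and 19 in all. The groups overlapped, and 20CBD replicate 4, the library that was also highest in its group for Cyp1a1, held 11 of the 19 counts. The mean was 0.133 ± 0.0871 CPM in Control, 0.164 ± 0.10 in 10CBD and 0.274 ± 0.252 in 20CBD (SD, n = 4 each). The gene failed the filter, with 1 library at or over 0.550 CPM. When all 40012 genes with any count were fitted, the log2 fold change of Ahrr was 0.29 at 10 mg (interval -1.40 to 2.00) and 1.01 at 20 mg (interval -0.58 to 2.67), so that a doubling and no change were both inside the interval at each dose.

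Ahr (ENSMUSG00000019256, chr12:35547973-35585057, minus strand), the receptor itself, held 5.45, 3.43, 6.08 and 4.99 normalized CPM in the Control libraries. The 10CBD libraries held 2.87, 7.11, 2.30 and 5.39, and the 20CBD libraries 5.26, 5.02, 2.63 and 4.28. The groups overlapped, and the 10CBD group alone spanned from the lowest to the highest value of all 12. The means were 4.99 ± 1.13, 4.42 ± 2.24 and 4.30 ± 1.19 CPM (SD, n = 4 each). The log2 fold change was -0.19 at 10 mg (interval -0.89 to 0.50, adjusted p = 0.952, edgeR) and -0.21 at 20 mg (interval -0.91 to 0.48, adjusted p = 0.910, edgeR). Exact permutation tests gave p = 0.486 for both doses.

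Arnt (ENSMUSG00000015522, chr3:95341365-95404551, plus strand), the nuclear partner that AhR shares with the hypoxia-inducible factors, was the most even member. Its Control libraries held 41.4, 36.3, 40.9 and 45.0 normalized CPM, its 10CBD libraries 42.7, 40.6, 41.3 and 41.9, and its 20CBD libraries 42.3, 42.3, 38.5 and 45.2. The groups overlapped, with means of 40.9 ± 3.56, 41.6 ± 0.917 and 42.1 ± 2.73 CPM (SD, n = 4 each). The log2 fold change was 0.03 at 10 mg (interval -0.19 to 0.25, adjusted p = 0.981, edgeR) and 0.04 at 20 mg (interval -0.18 to 0.26, adjusted p = 0.953, edgeR). These were the narrowest intervals among the 5 tested members.

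Tiparp (ENSMUSG00000034640, chr3:65435320-65463365, plus strand) encodes an ADP-ribosyltransferase that is induced by AhR and promotes its degradation. It held 16.3, 9.05, 13.9 and 15.7 normalized CPM in Control, 7.85, 16.1, 10.9 and 15.4 in 10CBD, and 23.0, 15.5, 6.70 and 12.4 in 20CBD. The 20CBD group held both the lowest and the highest library. The means were 13.7 ± 3.29, 12.6 ± 3.89 and 14.4 ± 6.78 CPM (SD, n = 4 each). The log2 fold change was -0.14 at 10 mg (interval -0.80 to 0.53, adjusted p = 0.971, edgeR) and 0.07 at 20 mg (interval -0.60 to 0.73, adjusted p = 0.981, edgeR). Between the doses, the log2 differences of Ahr, Arnt and Tiparp were -0.02, 0.02 and 0.20, and all 3 intervals included 0. Exons of Ahr and Tiparp overlap long noncoding RNAs on the opposite strand, which held 0 to 7 and 11 to 22 counts per library.

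Ahr and Tiparp did not overlap between libraries of low and high mitochondrial share of counts, a split chosen after seeing the data. The libraries held 15417867 to 23532088 counts on genes, and mitochondrial genes took 3.53% to 23.4% of them. The share was under 10% in 4 libraries, namely Control replicate 2, 10CBD replicates 1 and 3, and 20CBD replicate 3. In these 4, Ahr ranged from 2.30 to 3.43 CPM, below the 4.28 to 7.11 CPM of the other 8. Tiparp did not overlap either, at 6.70 to 10.9 CPM against 12.4 to 23.0. Arnt overlapped, at 36.3 to 42.7 against 40.6 to 45.2. How many of all tested genes had such a gap was not counted, and the fit below associated the share with 38.3% of all tested genes.

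With group and mitochondrial share in 1 edgeR fit, the coefficient per SD of the share (6.51 percentage points) was log2 0.50 for Ahr (adjusted p = 0.000685), 0.49 for Tiparp (0.000432) and 0.21 for Cyp1b1 (0.00891). It was 0.04 for Arnt (adjusted p = 0.583) and -0.28 for Cyp1a1 (0.472), by the same edgeR fit. The share was associated with 38.3% of all genes tested at an adjusted p under 0.1, and no test sets the 3 of 5 members apart from that background. Within the 4 libraries of low share, Cyp1b1 was 24.5 CPM in Control, 31.7 and 32.9 in 10CBD and 46.2 in 20CBD. Among the other 8 it was 31.1 to 41.4 in Control, 38.6 to 43.1 in 10CBD and 41.9 to 62.0 in 20CBD. All 20CBD values were above all Control values before the split, so any split keeps that order and cannot judge the part of the share. The highest Cyp1b1 values, 57.7 and 62.0 CPM, were in the libraries of highest share, 20CBD replicates 1 and 2 (20.6% and 23.4%). Without the 4 libraries, the log2 fold change of Cyp1b1 at 20 mg was 0.55 (adjusted p = 0.164, edgeR), and that of Cyp1a1 was -2.44 at 10 mg and -1.31 at 20 mg (adjusted p = 0.486 and 0.462, edgeR). What sets the mitochondrial share was not tested.

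**Figure D4:**
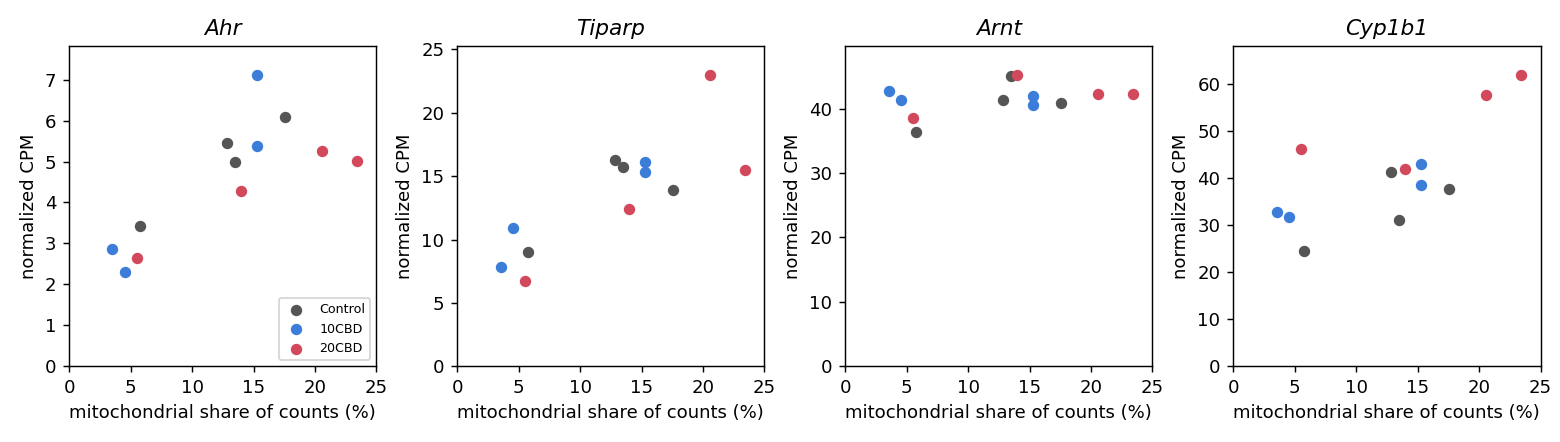
Normalized CPM (y axes from 0) of Ahr, Tiparp, Arnt and Cyp1b1 against the mitochondrial share of counts in percent (x axis), 1 point per library, colored by group. The 4 libraries under 10% have the lowest Ahr (2.30 to 3.43 CPM) and Tiparp (6.70 to 10.9 CPM) whatever their group. Arnt stays between 36.3 and 45.2 CPM. The split was chosen after seeing the data, and how many of all tested genes have such a gap was not counted. The share was associated with 38.3% of all tested genes.

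The genes whose log2 CPM ran most like each member over the 12 libraries were taken from all tested genes, 2 per member, as a description. For Cyp1b1 they were Dusp1, a phosphatase that switches off MAP kinases (Pearson r = 0.961), and Entpd1, an enzyme of vascular cells that breaks down extracellular ATP (0.948). They were Tma16 (0.957) and Usp53 (0.953) for Ahr, Zfp260 (0.968) and Ak3 (0.961) for Tiparp, and Zfp592 (0.899) and Tmem234 (0.881) for Arnt. For the sparse Cyp1a1 they were Rab35 (0.893) and Wars1 (0.867). The points share library preparation and mitochondrial share, and the best of 17163 correlations over 12 points is high by selection.

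The wider pathway was followed in 6 lists of 48 genes, of which 39 were tested. Over all lists 1 gene was called for 10CBD against Control, 3 for 20CBD against Control and 0 for 20CBD against 10CBD, beside the shares of all genes given above. Unadjusted p-values under 0.05 were found for 4, 6 and 5 of the 39. All called genes belonged to the relatives of AhR and ARNT in the bHLH-PAS family. The lists were chosen with earlier results of these data known, so the place of the calls is no test of the AhR pathway.

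In the bHLH-PAS list, 10 of 13 genes were tested, and Npas1, Npas3 and Npas4, which act mainly in neurons, were too low. Npas2, which pairs with BMAL1 in the circadian clock, ranged from 19.5 to 29.3 CPM in Control, 6.67 to 11.1 in 10CBD and 5.99 to 11.8 in 20CBD. It fell by 1.42 ± 0.23 on the log2 scale at 10 mg (adjusted p = 0.0792, edgeR) and by 1.44 ± 0.23 at 20 mg (adjusted p = 0.0258, edgeR). The 10 mg call was lost without any 1 of Control replicates 1, 3 and 4 or 10CBD replicates 1, 3 and 4 (adjusted p = 0.193 to 0.460) and under the replicate block (0.168), with the estimate between -1.30 and -1.46. The 20 mg call held in all of these, with an adjusted p of at most 0.0974. Bmal1, the clock's ARNT-like subunit, ranged from 19.7 to 28.0 CPM in Control and 5.75 to 12.7 in 20CBD, and fell by 1.21 ± 0.20 at 20 mg (adjusted p = 0.0340, edgeR). At 10 mg, Bmal1 ranged from 9.15 to 11.8 CPM, with log2 -1.02 ± 0.20 and an adjusted p of 0.229 (edgeR). The 10 mg difference of Bmal1 was called with DESeq2 (adjusted p = 0.0023). In edgeR it was called without a filter (3.8e-06), with only the groups compared (0.0666), with the mitochondrial covariate (0.0578) and without 20CBD replicate 4 (0.0558). Hif3a, a relative of the hypoxia-inducible factors, rose from 0.667 to 2.01 CPM in Control to 2.63 to 5.24 in 20CBD (log2 1.81 ± 0.34, adjusted p = 0.0567, edgeR). Leaving out Control replicate 1 ended the 20 mg calls of Bmal1 (adjusted p = 0.111) and Hif3a (0.192), and Hif3a also lost its call without Control replicate 2 or 4 or 20CBD replicate 2 or 4 (0.154 to 0.205). Epas1 and Clock, the most abundant genes of the list, gave log2 0.34 and -0.09 at 20 mg, and neither was called. The list's medians were -0.11, -0.02 and 0.08 for 10CBD against Control, 20CBD against Control and 20CBD against 10CBD, beside 0.01, 0.01 and -0.0033 over all tested genes.

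Among 13 other AhR targets, 10 were tested and 0 were called in the 3 comparisons by edgeR. Cyp1a2, the remaining CYP1 enzyme, Aldh3a1 and Fgf21 were too low, with 3, 15 and 3 counts per group in all for Cyp1a2 and 14, 17 and 20 for Aldh3a1. These 3 genes, and Igfbp1, Ugt1a6a and Kynu hereafter, were named after their values were seen. At 20 mg 8 of the 10 tested targets had a positive log2 fold change, with a median of 0.22, and 2 had an unadjusted p under 0.05. These were Igfbp1, a binding protein of insulin-like growth factors (19.9 to 28.9 CPM in Control, 29.6 to 44.0 in 20CBD, log2 0.60, adjusted p = 0.261, edgeR), and Ugt1a6a, a glucuronosyltransferase (0.762 to 1.41 and 1.14 to 2.57 CPM, log2 0.85, adjusted p = 0.462, edgeR). Gsta2, a glutathione transferase and the most abundant of them, ranged from 235 to 333 CPM in Control, 171 to 254 in 10CBD and 290 to 357 in 20CBD, with log2 -0.40 at 10 mg and 0.17 at 20 mg (adjusted p = 0.812 and 0.825, edgeR). Between the doses Gsta2 gave log2 0.57 ± 0.15 (unadjusted p = 0.00143, rank 23 of the genes tested, adjusted p = 0.758, edgeR), and the 10CBD and 20CBD libraries did not overlap. It was the 1 gene of the list with an unadjusted p under 0.05 at 10 mg. Between the doses Ugt1a6a gave log2 0.74 (adjusted p = 0.769, edgeR). Nfe2l2, the antioxidant regulator NRF2, gave -0.10 and 0.01. The list's medians were -0.03 at 10 mg and 0.23 between the doses.

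The other lists held 0 called genes in the 3 comparisons, and at an unadjusted p under 0.05 held 1 gene at each dose against Control, Kynu (kynureninase, in the tryptophan list). Kynu ranged from 12.5 to 17.3 CPM in Control, 7.71 to 11.5 in 10CBD and 7.78 to 12.1 in 20CBD, with log2 -0.55 and -0.47 (adjusted p = 0.796 and 0.475, edgeR). All 5 genes of the AhR chaperone list, 1 of which encodes a kinase and not a chaperone, were tested. The most abundant, Hsp90ab1 and Hsp90aa1, gave log2 0.10 and 0.23 at 10 mg and -0.11 and -0.0033 at 20 mg. All 5 coactivators were tested, with Ncoa3 at 0.05 and Crebbp at -0.07 at 20 mg. Of 9 enzymes that make or clear tryptophan-derived ligands, 6 were tested, Tdo2, Ido1 and Il4i1 being too low. None of the 6 had a positive log2 fold change at 20 mg, and the median was -0.15, with Aadat at -0.05 and Kmo at -0.14. All 3 electron donors of the P450 enzymes were tested, with Cyb5a at -0.14 and Cyb5r3 at 0.35 at 20 mg.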

How the data were processed

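Poly(A) libraries were prepared by the study with the CORALL mRNA-Seq V2 kit. Per the labels, the deposited files hold raw counts per Ensembl gene, made by the authors with FastQC 0.11.9, STAR 2.7.5c on GRCm39 and HTSeq 1.99.2, with DESeq2 3.16 for their comparisons, which were not used here. The strand setting, the annotation release and the use of molecular identifiers are not given in the sources used here, and identifiers decide whether PCR copies are counted. Gene names and exon lengths came from GENCODE vM39, in which 99.0% of IDs were found. Totals were 15417867 to 23532088 counts per library, which sets how well low genes are measured. No libraries were identical. The labels number the samples within a group and do not say more of the animals, and the study names 4 individuals per group.

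Counts were tested in edgeR 4.0.16 (R 4.3.3) by quasi-likelihood with TMM normalization, filterByExpr (minimum count 10) and all 3 groups in 1 fit. Adjusted p-values are Benjamini-Hochberg over all tested genes. The SE is the log2 fold change divided by the square root of the F statistic. Log2 CPM used a prior count of 2. Single genes were also compared by exact permutation tests over 70 arrangements. Scripts were tested on simulated data. Alternatives were RLE and upper-quartile normalization, DESeq2 1.42.0, limma-voom (limma 3.58.1), other filters, only the groups compared, a replicate block, the mitochondrial share as covariate, a stricter threshold and leaving out libraries. Genes, lists and tests were chosen with earlier results of these data known. Named genes are the 6 members, the 2 most abundant genes of each pathway list, every list gene called, cell type markers at 0 and the 2 most similar genes per member. The markers Col1a1, Lrp2, Slc22a6, Kdr and Star were named after their values were seen.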

Additional observations from a re-analysis of the deposited data

Results flagged for a closer look

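In the 20CBD group, Cyp1a1 in replicate 4 stood apart from the other 3 libraries, at 0.564 normalized CPM (10 counts). Its gap to the next library was 0.845 of the group's range, above the critical value of 0.829 for 4 samples. In all, 18 groups of member values were examined this way, and chance flags about 1 in 20.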

How the results depend on the processing

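No member was called at 10 mg or between the doses under any alternative run. At 20 mg against Control the count of called members was 1 (Cyp1b1) with DESeq2, without a filter and with the mitochondrial covariate, and 0 otherwise, including every fit that left out a library, where the log2 fold change of Cyp1b1 ranged from 0.50 to 0.74. Pathway genes called at 10 mg numbered 2 with DESeq2, 3 without a filter, 2 with only the groups compared, 2 with the covariate, 0 under the replicate block, 0 at an adjusted p under 0.05 and 0 to 2 when a library was left out (0 without Control replicate 1, 3 or 4 or 10CBD replicate 1, 3 or 4). At 20 mg they numbered 6 with the covariate and 1 to 3 when a library was left out (1 without Control replicate 1), and between the doses 2 without a filter. Direction turned for the following estimates, none of them called, and the cause was not tested. At 10 mg Arnt gave -0.000267 without a filter, Tiparp 0.045 with the covariate, and Ahr 0.18, Arnt -0.044 and Tiparp 0.036 without the 4 libraries of low mitochondrial share, an alternative chosen after seeing the data. At 20 mg Tiparp gave -0.029 with limma-voom and -0.27 with the covariate. Between the doses Ahr gave 0.13 with limma-voom and 0.0096 under the replicate block. With the covariate Arnt gave -0.020, Cyp1a1 0.010 and Tiparp -0.31, and without the 4 libraries Cyp1a1 gave 1.13. Leaving out a library gave ranges at 10 mg of -0.52 to 0.025 (Ahr), -0.029 to 0.072 (Arnt), -0.0097 to 0.24 (Cyp1b1) and -0.29 to 0.035 (Tiparp). At 20 mg they were -0.012 to 0.089 (Arnt) and -0.26 to 0.30 (Tiparp). Between the doses they were -0.24 to 0.30 (Ahr), -0.020 to 0.056 (Arnt), -0.80 to 0.49 (Cyp1a1) and -0.12 to 0.44 (Tiparp). Same-numbered libraries did not deviate together, with correlations of -0.33 to 0.317 between groups, so the replicate numbers were not taken as pairs. Under the replicate block Cyp1b1 gave 0.62 at 20 mg (adjusted p = 0.448, edgeR). Cyp1a1 and Ahrr gave no value where at least 10 counts were required in every library. Depth limits Cyp1a1 and Ahrr, with 128 and 43 counts over 12 libraries.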
